A study of Mus musculus with 3 samples.

Results

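A group of 48 genes was lower with lipopolysaccharide (LPS) than in unstimulated dendritic cells, and lower again when LPS was given together with 8-Br-cAMP. These were 48 of the 18193 genes with a probe set of their own on the array. Vsir, Cebpa, Dgkz, Tifab, Mfsd12 and Ighm had the largest differences from the unstimulated to the LPS and 8-Br-cAMP array, all at least 16-fold. The cells were mouse bone marrow-derived dendritic cells (BMDC), cultured with 10 ng/ml GM-CSF, a myeloid growth factor, over 10 days. The culture labelled BMDC(-) received no agent. The culture labelled BMDC(+LPS) was exposed to LPS at 10 ng/ml for 3 h, and the culture labelled BMDC(+LPS+cAMP) to the same LPS with 8-Br-cAMP at 100 µM for 3 h. LPS is a glycolipid of the bacterial outer membrane that is sensed through Tlr4, and 8-Br-cAMP is an analogue of the messenger cyclic AMP that enters cells. No time is given for the unstimulated culture, no culture received 8-Br-cAMP alone, and the labels used here name no strain, age or sex of the mice. Each condition had 1 array of total RNA, so no difference has a replicate check, and no test or p-value can be given.

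The members were chosen from the values described here. Signals of the 3 arrays were scaled to a common trimmed mean. A floor was set at a scaled signal of 32.5, the highest of the 3 array medians, and lower signals were raised to it before differences were taken on the log2 scale, where -1 is a 2-fold lower signal. Each gene was represented by its brightest probe set. A member had to be at least 2-fold lower with LPS than unstimulated (the LPS step) and at least 2-fold lower with LPS and 8-Br-cAMP than with LPS (the 8-Br-cAMP step). Both steps use the LPS array, so they are not independent: a low signal there enlarges the LPS step and shrinks the 8-Br-cAMP step.

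Dendritic cells sense microbes, take up and process antigen, and then present it to T cells. After Tlr4 is engaged, they turn on inflammatory genes while many genes of the resting cell, among them receptors of uptake and restraint, are turned down. Cyclic AMP is made by adenylate cyclases and acts through protein kinase A and the exchange factors Epac, and in myeloid cells it is known to reshape the response to LPS.

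At least 2-fold lower signals were found for 1597 of 12283 measured genes in the LPS step (13%) and for 730 of 12572 in the 8-Br-cAMP step (5.81%). The 48 genes in both sets were 3.01% of the former and 6.58% of the latter. They were 0.361% of the 13289 genes above the floor on at least 1 array. Only a gene at 4 times the floor or more in unstimulated cells could meet both criteria, and the 48 were 0.793% of those 6051 genes. Since these values chose the members, nothing is read from the shares. In the plot of both steps for each gene, the members form the lower left corner of one continuous cloud, not a separate group.

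**Figure D1:**
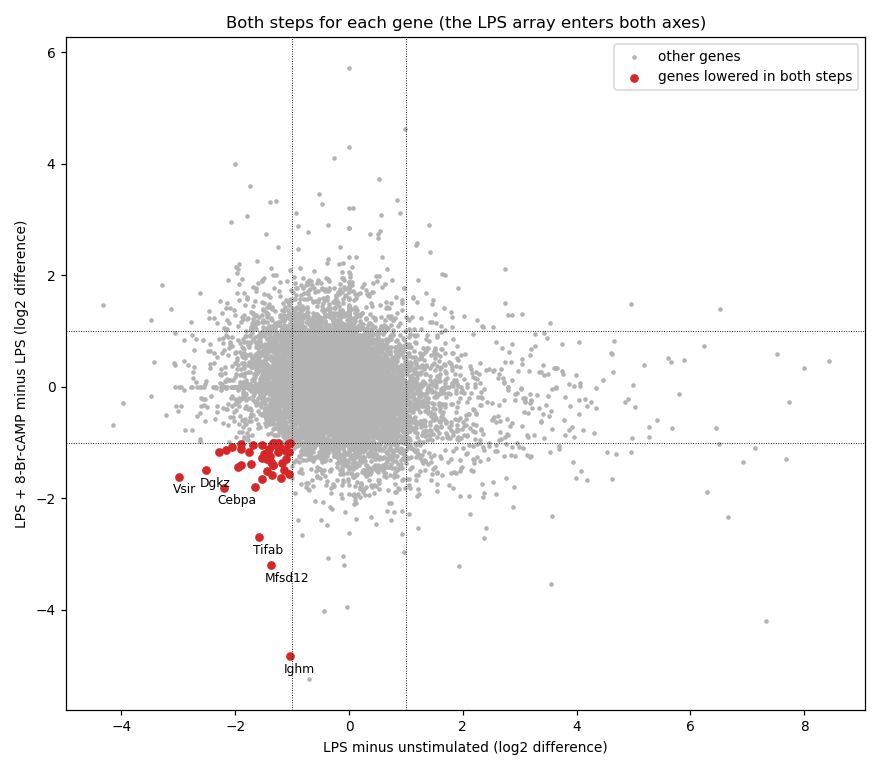
Log2 difference of the 8-Br-cAMP step (vertical) against that of the LPS step (horizontal) for each measured gene, with dotted lines at 2-fold and the 48 members in red. The members fill the lower left corner by the rule that chose them, and Ighm lies lowest, at -1.05 and -4.83.

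The arrays differed in brightness before scaling. The array of unstimulated cells had a deposited trimmed mean of 135, that of LPS 111 and that of both agents 63.2. Ratios of 3′ to 5′ control probe sets, a sign of RNA integrity, also differed in the order unstimulated, LPS, LPS with 8-Br-cAMP, at 1.51, 1.36 and 1.14 for Actb and at 0.771, 0.785 and 0.856 for Gapdh. Their part in the results was not tested. After scaling, between 21932 and 22518 of 45037 probe sets were above the floor on each array. All 17 dendritic cell markers with a probe set, such as Itgax, MHC class II and Flt3, were above the floor on every array, and their summed signal was 34793, 41962 and 54120 in the order unstimulated, LPS, LPS with 8-Br-cAMP. Xist, expressed from the inactive X chromosome of female cells, had signals of 32.3, 8.08 and 1716 in that order. Of 4 genes on the Y chromosome (Kdm5d, Uty, Zfy2 and Eif2s3y), all 4 exceeded the floor on the first 2 arrays and 0 of 4 with 8-Br-cAMP. The 8-Br-cAMP step therefore compares cultures that differed in these sex-linked genes as well as in the agent, and the part of that difference in the values below was not tested.

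The median member had a signal of 339 unstimulated, 114 with LPS and 39.6 with both agents, against 110, 86.1 and 86.4 for all genes above the floor. The median log2 difference was -1.39 in the LPS step (range -2.99 to -1.04), beside -0.21 for all genes measured in it. It was -1.22 in the 8-Br-cAMP step (range -4.83 to -1.0), beside 0.049 for all. The LPS step was the larger one in 31 members and the 8-Br-cAMP step in 17. On the array with both agents 16 members lay under the floor, so that their 8-Br-cAMP step is a lower bound on its size. The medians here and below take these genes at the floor. Without them, the LPS step was the larger in 22 of 32 members. That count leaves out the members whose 8-Br-cAMP step the floor cut short, while 31 against 17 takes that step at its cut size. Which step was more often the larger therefore cannot be read from either count. The balance depended on the scaling. With cyclic loess the members' medians were -1.19 in the LPS step and -1.27 in the 8-Br-cAMP step, and with spike scaling -1.72 and -1.04. With quantile and median scaling and as deposited, the LPS step had the larger median, as here. From unstimulated cells to both agents, 15 members were at least 8-fold lower and 6 at least 16-fold lower. Vsir, Cebpa and Fgd3 were the 3 members over 3-fold lower in both steps.

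**Figure D2:**
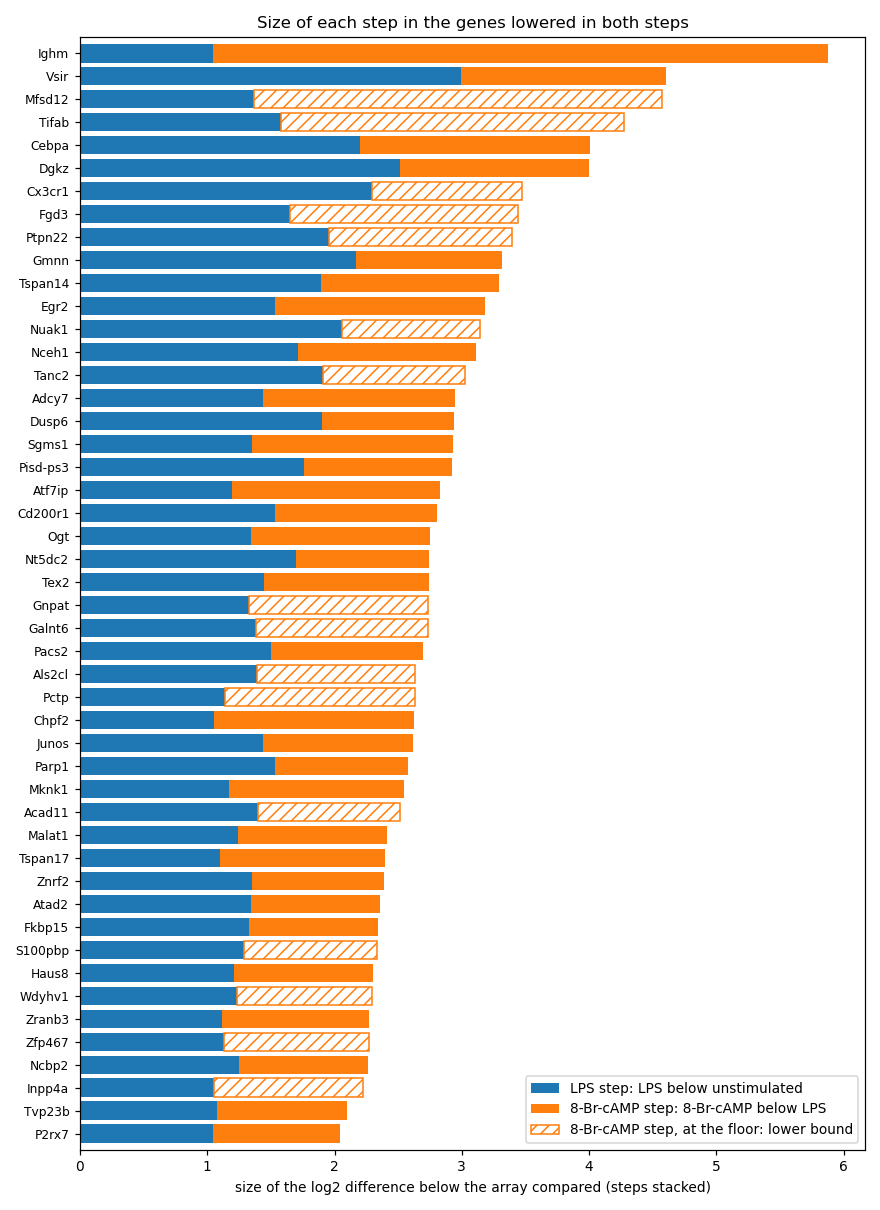
Size of the log2 difference in the LPS step (blue) and the 8-Br-cAMP step (orange) for each member, stacked, with hatching where the 8-Br-cAMP array lay under the floor and the size is a lower bound. Ighm, Tifab and Mfsd12 have the largest 8-Br-cAMP steps, and Vsir and Dgkz the largest LPS steps.

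Promoter sequence was looked at because it lies outside the values that chose the members. RefSeq promoter windows (build GRCm38.p6, from 250 bases before to 50 bases after the start) matched 40 of the 48 genes. Atad2, Cd200r1, Gmnn, Ighm, Ncbp2, Pisd-ps3, Tvp23b and Wdyhv1 had no window. For a gene with several starts the first window listed was used. Motifs were searched on both strands. The cyclic AMP response element (CRE) is bound by Creb, a factor that protein kinase A activates. Its core TGACGT was present in 2 of 40 windows (5%, 95% Wilson interval 1.38 to 16.5%) against 11.3% of the windows of 10649 genes above the floor. The complete element TGACGTCA, which contains the core, was in 1 of 40 (2.5%) against 3.03%. The following 250 bases before the start are those of the 2 members with the core, shown 5′ to 3′ with each match in capitals. In Inpp4a (chr1:37299588-37299837, + strand) the complete palindromic element begins 74 bases before the start. In Malat1 (chr19:5802673-5802922, - strand) a reverse match begins 155 bases and a forward match 45 bases before it.

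Inpp4a: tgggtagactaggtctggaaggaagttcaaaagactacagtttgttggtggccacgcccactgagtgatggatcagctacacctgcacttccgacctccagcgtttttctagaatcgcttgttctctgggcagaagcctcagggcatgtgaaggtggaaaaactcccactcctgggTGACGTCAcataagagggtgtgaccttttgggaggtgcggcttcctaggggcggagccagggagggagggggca

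Malat1: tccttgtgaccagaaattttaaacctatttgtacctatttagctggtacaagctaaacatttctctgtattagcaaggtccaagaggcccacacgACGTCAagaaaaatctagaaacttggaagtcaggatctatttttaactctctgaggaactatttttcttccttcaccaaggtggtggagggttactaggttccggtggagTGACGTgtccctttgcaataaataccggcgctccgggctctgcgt

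The element GAGGAAGT, of the kind bound by the myeloid factor PU.1, was also in 2 of 40 windows (5%) against 3.16%. These were Fgd3 (chr13:49309209-49309458, - strand), with the match 41 bases before the start, and Nceh1 (chr3:27182754-27183003, + strand), with the match on the reverse strand at 73 bases. Both are shown because they are the members with this letter run, again with capitals for the match.

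Fgd3: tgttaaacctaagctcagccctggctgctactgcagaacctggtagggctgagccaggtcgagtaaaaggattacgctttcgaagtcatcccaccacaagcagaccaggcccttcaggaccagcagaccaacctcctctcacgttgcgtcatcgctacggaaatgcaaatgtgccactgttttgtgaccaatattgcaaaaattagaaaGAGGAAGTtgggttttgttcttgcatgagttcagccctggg

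Nceh1: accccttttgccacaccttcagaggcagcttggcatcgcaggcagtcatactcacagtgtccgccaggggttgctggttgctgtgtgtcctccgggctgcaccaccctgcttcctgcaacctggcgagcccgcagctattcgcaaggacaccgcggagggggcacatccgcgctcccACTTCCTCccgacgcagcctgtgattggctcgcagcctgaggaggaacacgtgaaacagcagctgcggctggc

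A match describes letters and not binding. Neither the Foxo element GTAAACA nor the interferon-stimulated response element was found in the 40 windows, against 2.62% and 3.00% of all, and 0 of 40 has a Wilson upper limit of 8.76%. The E-box CACGTG was in 5 (12.5% against 9.90%), the CCAAT box in 17 (42.5% against 38.0%), the Sp1 element GGGCGG in 28 (70% against 60.5%), CACCC in 28 (70% against 63.3%) and TATAAA in 2 (5% against 8.06%). The Wilson interval of each of the 10 motifs held the share over all genes above the floor, so no motif set the members apart at this number of windows. The median gene spanned 40.4 kb among members (quartiles 10.1 and 61.1) and 22 kb among all genes above the floor (quartiles 9.19 and 52.2), so the ranges overlapped widely.

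From here on, 3 signals in a row are unstimulated, LPS, and LPS with 8-Br-cAMP, and a pair of log2 differences is the LPS step and then the 8-Br-cAMP step. The 6 surface and membrane proteins had median differences of -1.71 in the LPS step and -1.28 in the 8-Br-cAMP step. Vsir encodes VISTA, an inhibitory ligand of the B7 family on myeloid cells that restrains T cells. Its signal was 1225 unstimulated, 154 with LPS and 50.4 with both agents, 7.96-fold lower in the LPS step and 3.05-fold lower in the next. Its LPS step was the largest of all members, and the next-brightest probe set of the gene gave 568, 168 and 154, so it was lower in the LPS step but near level in the other (-1.75 and -0.13). Cd200r1, an inhibitory receptor for Cd200, had signals of 1262, 436 and 180 in the same order and remained well above the floor on every array. Its differences were -1.53 and -1.27, and its next-brightest probe set gave -0.95 and -0.99, the last value limited by the floor.

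Cx3cr1, the receptor for the chemokine fractalkine and a marker of monocyte-derived cells, had signals of 361, 73.6 and 16.6. It was 4.90-fold lower in the LPS step and then at least 2.26-fold lower, under the floor with both agents. Its next-brightest probe set gave -1.52 and -0.49, the second value limited by the floor. Tspan14 (460, 124 and 47.1) and Tspan17 (197, 91.9 and 37.4) are tetraspanins of the TspanC8 family, which carry the shedding protease Adam10 through the cell. The next-brightest probe set of Tspan17 was lower in the LPS step alone (-0.81 and 0.10). Adam10 itself was at 828, 531 and 526, and the family members Tspan5 (183, 109 and 164) and Tspan33 (92.8, 137 and 120) did not meet the rule with this scaling. P2rx7, a cation channel opened by extracellular ATP, had signals of 352, 171 and 85.3. It lay nearest to the threshold of all members, with differences of -1.04 and -1.0. Its next-brightest probe set gave -1.19 and -0.10, and a dimmer one gave 0.03 and 0.68.

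The 10 signalling proteins formed the largest set, with medians of -1.62 and -1.40. Adcy7, an adenylate cyclase, makes cyclic AMP itself. Its signal was 1582 unstimulated, 584 with LPS and 205 with both agents, 2.71-fold and 2.85-fold lower in the successive steps. Its 3 probe sets all met both criteria: the others gave 511, 174 and 38.6, and 453, 157 and 47.2. No other adenylate cyclase met the rule with this scaling. Adcy9 had signals of 134, 145 and 213, and Adcy6 of 116, 100 and 66.6.

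Tifab, a regulator related to the Traf6-binding adaptor Tifa, had signals of 629, 210 and 26.9. It was 2.99-fold lower in the LPS step and at least 6.46-fold lower in the 8-Br-cAMP step, and its only other probe set above the floor met both criteria as well, at 272, 102 and 21.2. Tifa went the other way, at 327, 585 and 1046. Dgkz, a kinase that converts the lipid messenger diacylglycerol to phosphatidic acid, had signals of 886, 156 and 55.3. Its LPS step of 5.70-fold was the second largest, but its next-brightest probe set gave differences of -1.04 and -0.10. The related kinase Dgkd had signals of 230, 123 and 62.6, with both differences just short of 2-fold (-0.90 and -0.97).

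Fgd3 is an exchange factor for Cdc42, the GTPase that shapes filopodia. Its signals were 354, 113 and 15.1, 3.14-fold and then at least 3.47-fold lower, but its next-brightest probe set, at 90.5, 73.0 and 13.3, gave only -0.31 in the LPS step. Ptpn22, a tyrosine phosphatase that tunes immune receptor signalling, had signals of 342, 88.0 and 21.8, and the kinase Nuak1, a relative of AMPK, 287, 68.9 and 29.9. Both were under the floor with both agents. Dusp6, the phosphatase that turns off the MAP kinase Erk, had signals of 750, 201 and 97.9, with differences of -1.90 and -1.04. Among related Erk phosphatases, Dusp5 had signals of 163, 242 and 842, and Dusp7, at 93.9, 71.2 and 26.0, passed 2-fold in the 8-Br-cAMP step alone.

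Mknk1, a kinase downstream of Erk and p38 that phosphorylates the translation factor eIF4E, had signals of 530, 235 and 90.6. Its next-brightest probe set was lower in the LPS step alone, at 221, 84.6 and 94.4, as was its relative Mknk2, at 971, 218 and 214. The remaining signalling members were dimmer. Inpp4a, a phosphoinositide 4-phosphatase, had signals of 152, 73.3 and 25, and Als2cl, a relative of the Rab5 exchange factor alsin, 202, 77.0 and 27.3. The next-brightest probe set of Als2cl lay near the floor on every array, at 37.4, 36.8 and 40.5, and gave -0.02 and 0.14.

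**Figure D3:**
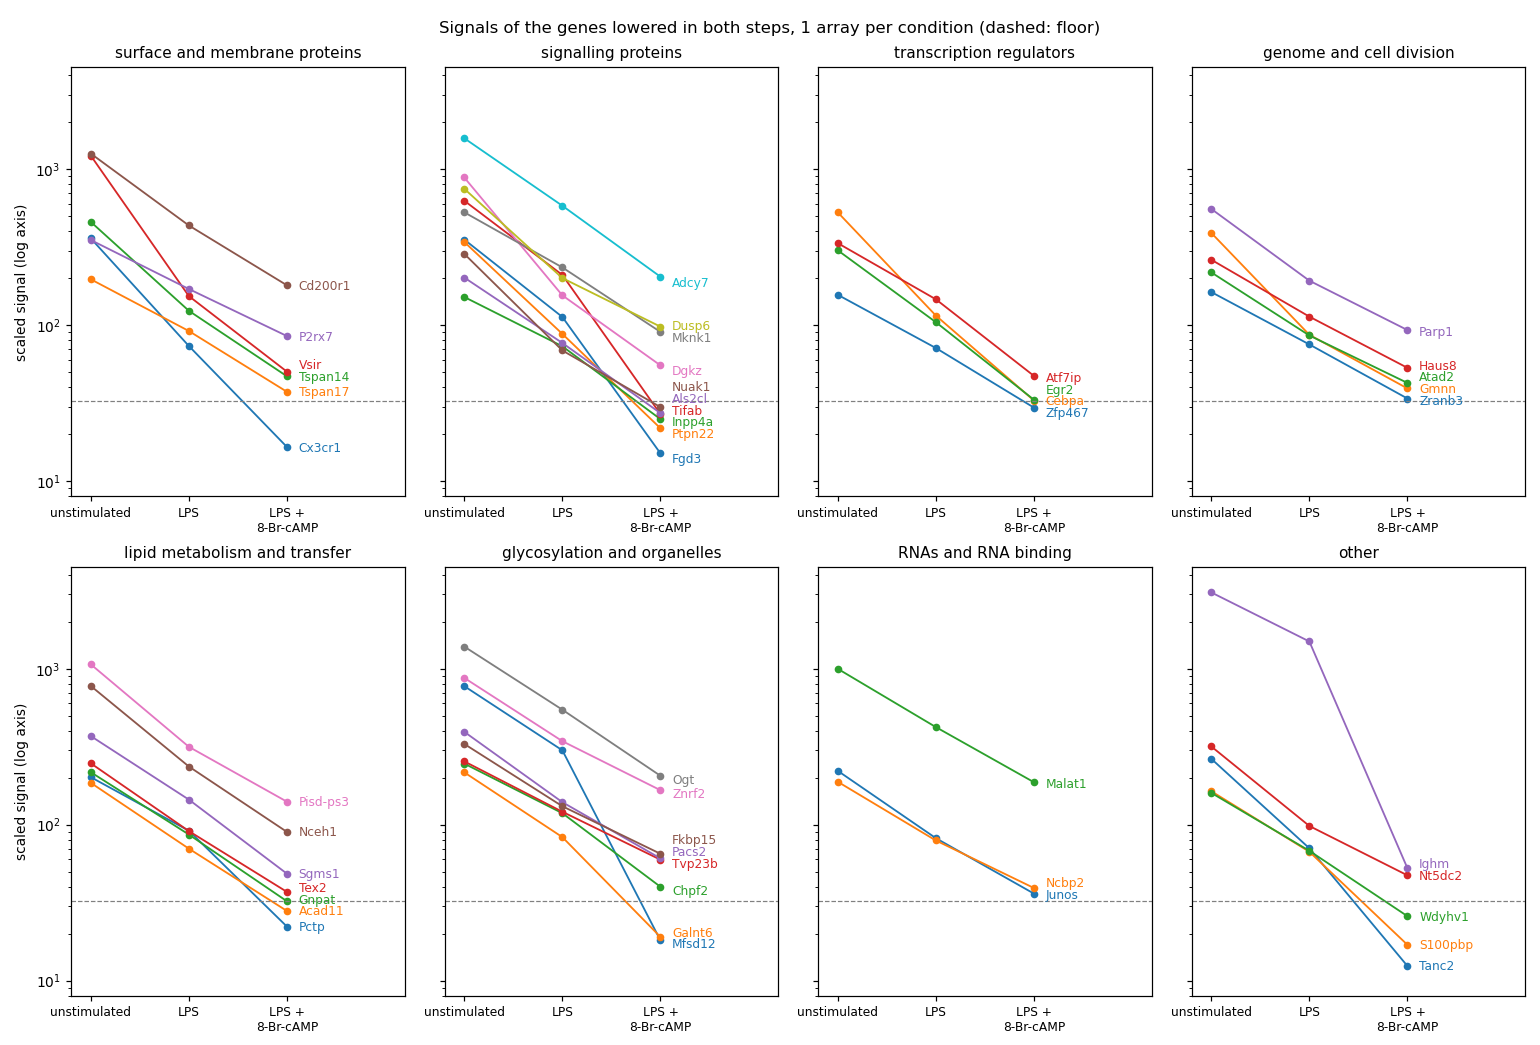
Scaled signal of each member on the 3 arrays (log axis, 1 point per array), with a panel for each role and a dashed line at the floor of 32.5. Lines descend through all 3 arrays in every panel by the rule that chose the genes, and 16 of them end under the floor.

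The 4 transcription regulators had medians of -1.36 and -1.64. The 8-Br-cAMP step was the larger in 3 of them, but by little in Egr2 (-1.53 and -1.65) and hardly at all in Zfp467 (-1.13 and -1.13). Cebpa is a factor that directs myeloid differentiation and restrains proliferation. Its signal was 530 unstimulated, 115 with LPS and 32.9 with both agents, 4.59-fold lower in the LPS step, 3.51-fold lower in the 8-Br-cAMP step and 16.1-fold lower in all. No other C/EBP factor met the rule with this scaling. Cebpb, the form linked to inflammatory activation, had signals of 1812, 3272 and 3832, and Cebpd 469, 460 and 336. Cebpg was lower in the LPS step alone, at 307, 115 and 136.

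Egr2, an early response zinc finger factor, had signals of 302, 105 and 33.3, the last just above the floor. Its differences were -1.53 and -1.65. Its next-brightest probe set was above the floor unstimulated only, at 145, so the 8-Br-cAMP step could not be read from it. Egr1, the best known of that family, had signals of 146, 76.2 and 110. Atf7ip, a cofactor in gene silencing through histone methylation, had signals of 336, 147 and 47.3, but its next-brightest probe set gave -0.42 and 0.37. The zinc finger protein Zfp467 had signals of 157, 71.5 and 29.6.

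The 5 genes of DNA maintenance and cell division had medians of -1.34 and -1.09. Gmnn encodes geminin, which blocks a further round of DNA licensing within a cell cycle. Its signal was 391 unstimulated, 86.8 with LPS and 39.3 with both agents, 4.50-fold lower in the LPS step. Parp1, the sensor of DNA breaks that makes poly(ADP-ribose), had signals of 557, 193 and 93.1. Its next-brightest probe set followed in the LPS step and not in the other (-1.67 and 0.31). Haus8, a subunit of the augmin complex of the spindle, had signals of 263, 114 and 53.3, the fork-remodelling helicase Zranb3 163, 75.3 and 33.9 and the chromatin ATPase Atad2 218, 86.0 and 42.7. The next-brightest probe set of Zranb3, at 84.7, 29.9 and 35.8, gave -1.38 and 0.14, and was under the floor with LPS. That of Atad2 was above the floor with both agents only, at 41.6.

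The 7 genes of lipid metabolism and transfer had medians of -1.40 and -1.39. Gnpat, Pctp and Acad11 among them were under the floor with both agents, so their 8-Br-cAMP step is a lower bound. Nceh1, which hydrolyses cholesterol esters in macrophages, had signals of 775, 236 and 89.8. Of its other probe sets, the next-brightest gave 247, 114 and 86.4 and fell short of 2-fold in the 8-Br-cAMP step (-0.40), and a further one met both criteria, at 291, 115 and 33.7. Sgms1, the Golgi synthase of sphingomyelin, had signals of 370, 145 and 48.5, and its next-brightest probe set gave -0.72 and -1.21. Gnpat, which starts ether lipid synthesis in peroxisomes, had signals of 217, 86.4 and 32.3. Pctp, a phosphatidylcholine transfer protein, had 202, 91.4 and 22.2, and Acad11, an acyl-CoA dehydrogenase, 185, 70.2 and 28.0.

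The remaining lipid genes carry reservations. Tex2, an endoplasmic reticulum protein with a lipid transfer domain, had signals of 247, 90.9 and 37.1, but its only other probe set above the floor was dim and gave 0.31 and 0.16. Pisd-ps3 is a pseudogene of the phosphatidylserine decarboxylase Pisd, at 1067, 316 and 140. Its probe set is of a kind that can hybridise to related transcripts, so the signal cannot be assigned to the pseudogene alone.

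The 8 genes of glycosylation and organelles had medians of -1.35 and -1.28. Mfsd12, a lysosomal transporter of cysteine, had signals of 773, 300 and 18.1. It was 2.58-fold lower in the LPS step and at least 9.21-fold lower in the 8-Br-cAMP step, the largest 8-Br-cAMP step after Ighm. It had no other probe set above the floor. Ogt, the enzyme that attaches single N-acetylglucosamine sugars to nuclear and cytosolic proteins, had signals of 1386, 546 and 206. All 4 of its other probe sets were lower in both steps, and 1 of them met both criteria. Znrf2, a ubiquitin ligase of endosomes and lysosomes, had signals of 873, 343 and 166, and 1 of its other probe sets met both criteria, at 453, 199 and 57.5.

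Galnt6, which begins mucin-type O-glycosylation, had signals of 216, 83.2 and 19.1, and Chpf2, of chondroitin sulphate synthesis, 246, 118 and 40.0. The sorting protein Pacs2 had signals of 394, 139 and 60.7. Fkbp15, linked to endosome movement, had 329, 131 and 65.0, and the Golgi protein Tvp23b 255, 121 and 59.6. Next-brightest probe sets of Galnt6, Pacs2, Chpf2 and Fkbp15 were almost level in the LPS step, at -0.05, -0.10, -0.05 and -0.06. In the 8-Br-cAMP step they gave -0.99, -0.82, -0.03 and -0.82. These probe sets were dim, at 78.1, 63.6, 35.5 and 70.4 unstimulated in that order. That of Chpf2 lay so near the floor on every array that it had almost no room to be lower.

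Noncoding RNAs and an RNA-binding protein made up 3 members. Malat1, a nuclear long noncoding RNA of speckles, had signals of 999, 422 and 187. Its 6 other probe sets above the floor differed among themselves, and the brightest of them gave 545, 590 and 281, lower in the 8-Br-cAMP step alone. Neat1, the noncoding RNA of paraspeckles, had signals of 3030, 1621 and 311, just short of 2-fold in the LPS step (-0.90). Junos, a noncoding RNA that lies beside Jun, had signals of 221, 81.9 and 36.1, whereas Jun had 453, 615 and 181. Ncbp2, the small subunit of the complex that binds the cap of nuclear RNA, had 188, 79.2 and 39.2.

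Ighm, the heavy chain of IgM, was the brightest member and had the largest 8-Br-cAMP step. Its signal was 3086 unstimulated, 1495 with LPS and 52.5 with both agents, 2.06-fold and then 28.5-fold lower. Its 9 probe sets above the floor disagreed in the LPS step: a further one met both criteria at 1490, 691 and 47.2, while another gave 126, 198 and 40.0. IgM is made by B cells, and the 14 B cell markers with a probe set, Ighm among them, had summed signals of 3774, 2004 and 581. Without Ighm the other 13 summed to 688, 508 and 528. Of the 14, only 9, 9 and 8 were above the floor on the arrays in turn. The sum without Ighm therefore includes background signal and cannot show whether B cell content was level. Of the 10 B cell markers measured in each step, 2 were at least 2-fold lower and 1 higher in the LPS step (median -0.57), and Ighm alone was lower and 0 higher in the 8-Br-cAMP step (median 0.025). Single markers differed: Cd79a had signals of 71.6, 37.7 and 3.07 and Ms4a1 of 82.5, 47.5 and 25.3, whereas Igll1 had 51.1, 105 and 106 and Cr2 30.8, 45.0 and 64.4.

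Plasma cells also make immunoglobulin. Jchain, the joining chain of IgM and IgA, had signals of 716, 529 and 23.2, and Igha, the heavy chain of IgA, 903, 881 and 57.0, so both were far lower in the 8-Br-cAMP step and neither passed 2-fold in the LPS step. The 8 plasma cell markers with a probe set summed to 6005, 5275 and 7568, with Sdc1 at 1598, 1540 and 3864. Of the 6 measured, 2 were lower and 1 higher in the 8-Br-cAMP step (median -0.47). In bulk RNA, fewer cells of a type and less RNA per cell cannot be told apart, and the part of B cells and plasma cells in the Ighm values was not tested.

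Other cell types also differed between the arrays. Granulocyte markers summed to 44346, 46199 and 24344, and 9 of the 16 measured were at least 2-fold lower in the 8-Br-cAMP step (median -1.14). Eosinophil markers summed to 1413, 1501 and 508, with 3 of 4 measured lower and 0 higher in that step (median -1.49). Mast cell and basophil markers summed to 821, 1141 and 1451, with 2 of 8 lower and 0 higher (median 0.15). Macrophage and monocyte markers, which include Cx3cr1, summed to 44021, 49768 and 60074, with Cd14 alone at 4222, 10940 and 20763. Of the 15 measured, 2 were lower and 3 higher in the LPS step (median -0.084), and 2 lower and 1 higher in the 8-Br-cAMP step (median -0.21). The part of such shifts in the other members was not tested.

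Of the remaining members, Tanc2, a scaffold protein best known from synapses, had signals of 264, 70.5 and 12.4. Its next-brightest probe set, at 192, 40.2 and 22.5, gave -2.26 and -0.31, the second value limited by the floor. Nt5dc2, of the 5′-nucleotidase family, had signals of 317, 98 and 47.3. S100pbp, a binding partner of S100 proteins, had 164, 67.0 and 17.0, and Wdyhv1, an amidase of N-terminal glutamine, 160, 67.9 and 25.9. The next-brightest probe set of S100pbp was lower in the LPS step and higher in the other, at 73.6, 39.5 and 51.8 (-0.90 and 0.39). That of Wdyhv1 gave -0.88 and -0.33.

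Next-brightest probe sets, which the rule did not use but which come from the same arrays, were available above the floor for 35 members. They were lower in the LPS step for 32 of 35 (91.4%), beside 640 of 773 (82.8%) for all genes lowered in that step and 55.1% for all measured genes. They were lower in the 8-Br-cAMP step for 25 of 35 (71.4%), beside 267 of 371 (72.0%) and 48.2%. In both steps 24 of 35 were lower. Past 2-fold, however, there were 15 of 35 in the LPS step, 6 in the 8-Br-cAMP step and only Adcy7, Ighm and Tifab in both. A probe set under 4 times the floor (130) unstimulated could not pass 2-fold in both steps. Among such sets were those of Fgd3 (90.5) and Pctp (102), so the count in both does not measure disagreement alone. The medians of the next-brightest probe sets were -0.95 and -0.33, smaller than the -1.39 and -1.22 of the probe sets that chose the genes. The floor limits these medians as well. The scatter between probe sets of 1 gene gave an error (SD of 1 probe set's log2 difference) of 0.49 in the LPS step over 5343 genes and 0.53 in the 8-Br-cAMP step over 5302 genes. The members' median differences of -1.39 and -1.22 therefore lie within that error of the threshold, as do those near -1.0.

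**Figure D4:**
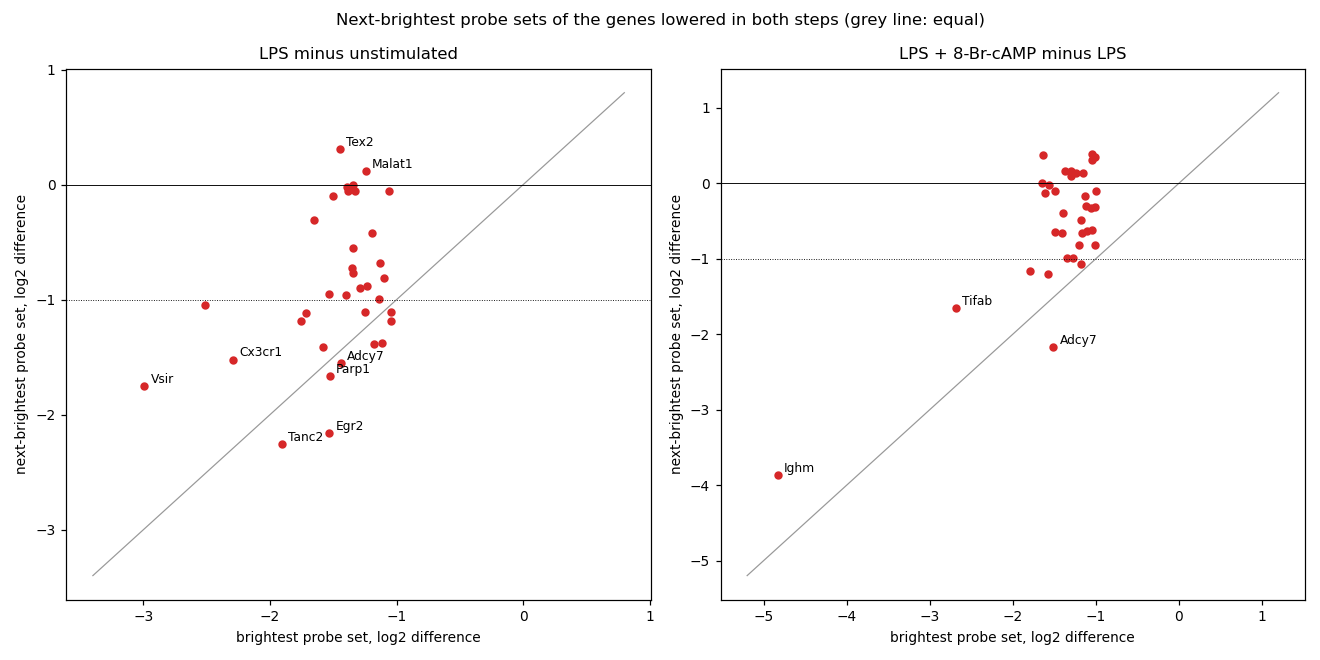
Log2 difference of the next-brightest probe set (vertical) against that of the probe set used (horizontal) for 35 members, in the LPS step (left) and the 8-Br-cAMP step (right), with a dotted line at 2-fold and a grey line of equality. Most points lie above the grey line, and 25 lie under 0 on the right against 32 on the left.

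Genes on either side of the threshold had similar signals. Just inside, the smaller of the differences was -1.0 for P2rx7 and -1.01 for Atad2, Fkbp15 and Ncbp2. Just outside were Anln, a scaffold of the dividing cell (133, 65.0 and 19.9), the adhesion protein Tns1 (173, 86.8 and 10.0), the myosin Myo1f (786, 394 and 194) and the Arf regulator Agap3 (147, 64.9 and 27.9). Each of these was past 2-fold in 1 step and at -1.0 in the other.

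Of 28 lists of genes by function, 13 held a member, and 34 of the 48 members were in none. Over all measured genes, 6.64% were at least 2-fold higher in the LPS step and 6.49% in the 8-Br-cAMP step, beside the 13% and 5.81% that were lower. The lipid and cholesterol metabolism list held Sgms1 and Dgkz. In it 19 of 96 measured genes were at least 2-fold lower and 8 higher in the LPS step (median -0.32), and 9 of 93 lower and 7 higher in the 8-Br-cAMP step (median -0.043). The cAMP pathway list, which held Adcy7, had 10 of 48 lower and 1 higher in the LPS step (median -0.30), then 2 of 49 lower and 9 higher in the 8-Br-cAMP step (median 0.10). Adcy7 was 1 of the 10 lower genes in the LPS step, where the list median lay near the -0.21 of all measured genes. It was 1 of the 2 lower genes in the other step.

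Lysosome, endosome and autophagy genes, with Mfsd12, had 20 of 86 lower and 3 higher in the LPS step, then 9 of 86 lower and 5 higher in the 8-Br-cAMP step. Among DNA damage and repair genes, with Parp1, 13 of 46 were lower and 1 higher, then 5 of 44 lower and 0 higher. Costimulation and T cell regulation genes went the other way in the LPS step, with 4 of 28 lower, Vsir among them, and 14 higher (median 1.05). In the 8-Br-cAMP step 1 of 26, Vsir, was lower and 6 were higher.

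Further lists with a member had counts in both directions. Ion channels and solute carriers, with P2rx7, had 21 of 70 lower and 8 higher in the LPS step, then 9 of 70 lower and 4 higher. Myeloid transcription factors, with Cebpa, had 15 of 89 lower and 16 higher, then 11 lower and 11 higher. Chemoattractant receptors, with Cx3cr1, had 5 of 17 lower and 3 higher, then 3 lower and 3 higher. Genes of S phase, G2 and mitosis, with Gmnn, had 8 of 66 lower and 3 higher, then 6 of 59 lower and 2 higher. The list of Tlr4 signalling and MAP kinases, with Dusp6, had 13 of 49 lower and 10 higher, then 6 of 46 lower and 8 higher. Phosphoinositide enzymes, with Inpp4a, had 9 of 50 lower and 7 higher, then 4 of 49 lower and 2 higher. Myeloid C-type lectins and paired receptors, with Cd200r1, had 11 of 49 lower and 7 higher, then 8 of 48 lower and 3 higher.

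Membership depended on the processing. Under quantile, median, cyclic loess and spike scaling and as deposited, both steps remained past 2-fold in all 5 for 22 of the 48 genes. Scaling moved the median of all genes in the LPS step from -0.21 to -0.51 with spikes and -0.47 as deposited, and in the 8-Br-cAMP step from 0.049 to 0.16 and -0.65. Adcy7, Cd200r1, Mfsd12 and Nceh1 met the rule in all 10 alternatives of scaling, floor, pseudocount and probe set choice, and Inpp4a in 2 of 10.

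**Figure D5:**
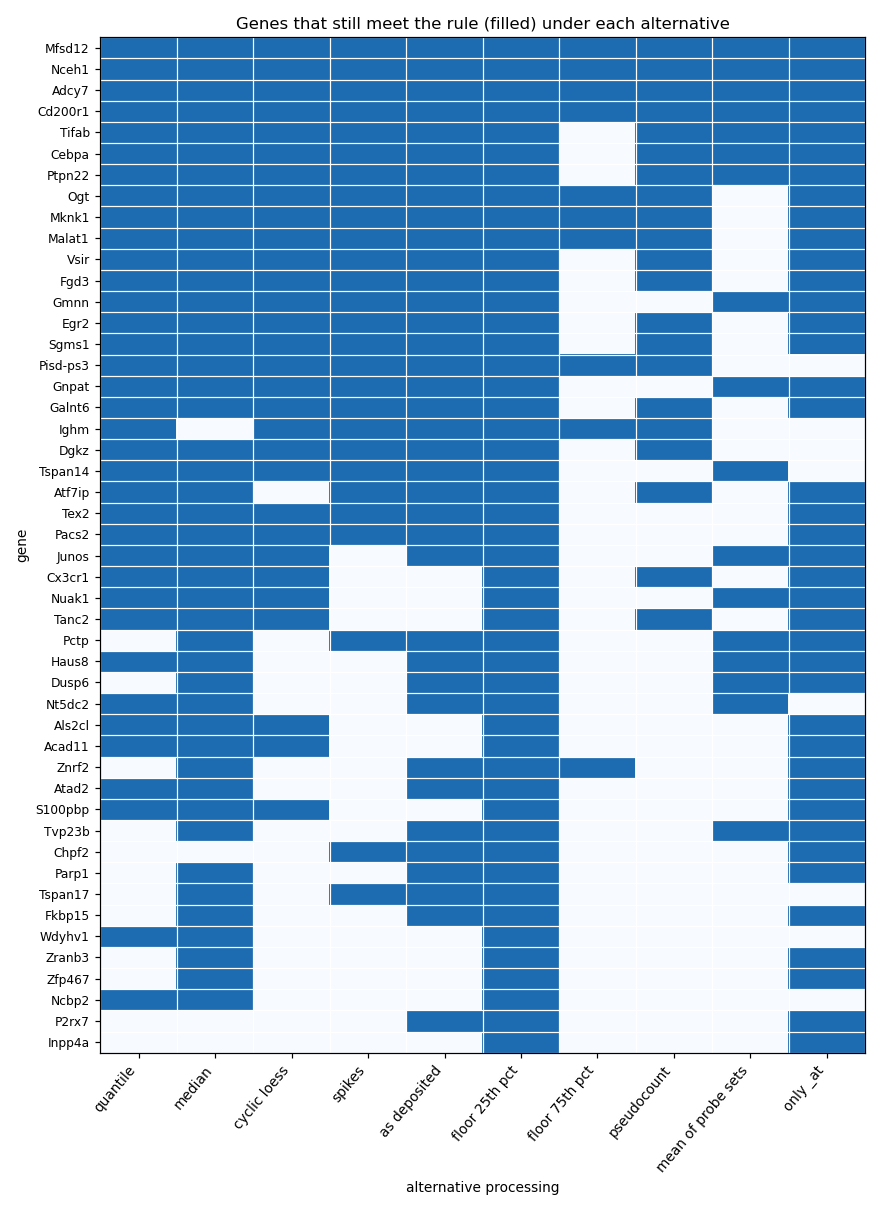
Whether each member (rows) still met the rule (filled) under each of 10 alternatives in processing (columns). The 4 genes at the top met it under all 10, and the column of the floor at the 75th percentile is filled for 10 genes.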

How the data were processed

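Total RNA of 3 cultures was hybridised to Affymetrix mouse whole-genome arrays, 1 per condition. The values deposited were linear intensities of probe sets. Per the submitters' processing notes the tool was MAS5, and its version and target are not stated in the labels used here. No columns of other samples were present (0). The 64 control probe sets were left out. Platform annotation gave 1 gene for 34945 probe sets, several for 932 and none listed for 9160, and 99.4% of the former matched RefSeq.

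Each array was multiplied by a factor (0.763, 0.929 and 1.63 in the order unstimulated, LPS, LPS with 8-Br-cAMP) that brought its mean, trimmed by 2% at each end, to their average. Scaling raises a dim array's noise as well as its signal. A gene counted as measured where either array compared was above the floor. The steps were tested on simulated data. Python 3.11.15, numpy 2.4.6 and pandas 2.3.3 were used.

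The members and gene lists were chosen with earlier results of these data known, and roles and related genes after their values were seen. The naming rule took the members with the 20 largest differences from unstimulated to both agents whose other probe sets were not 2-fold higher, the 10 largest smaller steps above the floor on all arrays, up to 4 per list, and the 4 genes on each side of the threshold. The remaining members were named to account for all. The number of arrays limits the precision. Counts for 1 of the lists with a member are not reported here.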

Additional observations from a re-analysis of the deposited data

How the results depend on the processing

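The 48 genes became 44 with quantile normalization, 53 with a common median, 35 with cyclic loess, 53 with spike scaling and 43 with only probe sets ending in _at. They became 416 with signals as deposited, 154 with the floor at the 25th percentile, 10 with it at the 75th, 27 with a pseudocount in place of the floor and 18 with the mean over probe sets. At thresholds of 1.5-fold and 3-fold there were 391 and 3. Of the main 48, 37 remained with signals as deposited, 27 with spike scaling and 17 with the mean over probe sets. Members in a functional list were 14, and 3 with the floor at the 75th percentile. The cause of these shifts was not tested. The 8-Br-cAMP step of Tspan17 was 0.099 with only probe sets ending in _at, where another probe set stands for the gene. Of 1034 single-gene differences under alternatives, over 52 genes, 899 moved by less than the error of 1 probe set and 134 by more. The remaining 1 reversed. No replicate could be left out. No paired analysis was possible because each condition had 1 array.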

Other observations

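On the level of probe sets, 97 met both criteria, of which 84 had 1 gene, 4 had several and 9 were not listed. Of the 84, 55 belonged to members and 29 to 29 other genes, whose brightest probe set did not meet the rule. Some of these other genes had a far brighter probe set with smaller differences. Gpnmb, a glycoprotein of phagocytes, met the rule at 206, 88.1 and 30.0 but had a probe set at 7202, 6302 and 4982 (unstimulated, LPS, LPS with 8-Br-cAMP). Msr1, a scavenger receptor, met it at 176, 84.9 and 36.3 against 1589, 2052 and 1196.

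Gng2, a G protein gamma subunit, gave 350, 72.4 and 31.9 with one probe set and 447, 217 and 253 with the brightest. Stk17b, a kinase tied to apoptosis, gave 304, 93.8 and 39.3 against 1395, 366 and 1307, so its probe sets went opposite ways in the 8-Br-cAMP step. Pnisr, a protein linked to splicing, was lower in both steps by both probe sets, at 329, 83.7 and 37.6 and at 396, 223 and 35.3, with its brightest short of 2-fold in the LPS step (-0.83). The RNA-binding proteins Tia1 (168, 70.8 and 27.4) and Tial1 (288, 108 and 48.6) and the nuclear protein Hnrnpu (220, 89.2 and 44.1) met the rule by a dimmer probe set alone. These genes were picked after their values were seen.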
